A study of Drosophila melanogaster with 6 samples.

Results

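The Snail family cluster of Drosophila melanogaster holds the genes worniu (wor), escargot (esg) and snail (sna) on the left arm of chromosome 2. It was taken here as the stretch of arm 2L from 15220001 to 15490000, in the Release 5 coordinates of the deposited files, with esg near 15.33 Mb and sna near 15.48 Mb. Windows of 10 kb that lay wholly inside it were its members, and there were 105 of them among 9205 on arm 2L and 55900 in all. The 300 kb on each side, with 117 windows each, served as flanks. The members were chosen by position, but the cluster and its division into parts were set with earlier results of these data known.

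Snail family proteins are zinc-finger transcription factors that bind E-box sequences and act mostly as repressors. In the fly embryo, sna specifies the mesoderm and is needed for the cell shape changes of gastrulation, esg keeps imaginal cells diploid and maintains progenitor cells such as those of the adult midgut, and wor is expressed in neuroblasts, where the family acts in asymmetric division. DNA is copied along each chromosome in a set order during S phase. In flies, as in mammals, regions rich in transcribed genes tend to be copied early, and regions that are silent in a given cell type tend to be copied late.

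Kc cells, in which the measurement was made, are a female line from late-stage embryos, labelled with the genotype se/e and as wild type. Growing cultures received a BrdU pulse of 50 µg/ml for 1 hour, and cells were sorted by propidium iodide stain into 3 fractions of S phase (Early S, Mid S, and then Late S). Labelled DNA was recovered with an anti-BrdU antibody and sequenced, with 2 libraries for each fraction. All groups share the line and the labelling, there was no unlabelled or unsorted library among the samples, and gene expression was not measured, so nothing here tells whether wor, esg or sna was transcribed.

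The 6 libraries held 1384200 to 2936097 reads each. The values are RPKM, in which reads are divided by the length of the window and the size of the library, and 1 read was worth 0.0341 to 0.0722 RPKM. In the cluster a window held a median of 56 and 31 reads in the Early S libraries and 243 and 177 in the Late S libraries. Windows started every 2.5 kb, so neighbours share reads and are not independent. Nothing in the labels says that the libraries of a fraction came from separate cultures, so the spread behind each p-value is that of these libraries alone and may be technical. RPKM fixes the total of each library, so a value is a share of the label recovered in that fraction and not an amount of DNA copied. The median window of the genome differed by -0.23 (log2) between Early S and Late S, -0.36 between Early S and Mid S, and 0.17 between Mid S and Late S, and the differences below can be read against these.

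Taken over its median window, label in the cluster rose from Early S through Mid S to Late S. The median window of the cluster had 1.91 and 1.64 RPKM in the Early S libraries. It had 4.46 and 5.75 RPKM in the Mid S libraries. It had 13.1 and 12.8 RPKM in the Late S libraries. The 3 fractions did not overlap, and the means were 1.77 ± 0.191, 5.11 ± 0.913 and 12.9 ± 0.212 RPKM (SD, n = 2 each). The median windows of the whole arm lay much closer together, at 5.92 ± 0.154, 7.53 ± 0.00807 and 7.78 ± 0.0332 RPKM. Shares of label were taken with the sum of the 3 fraction means of a window as 100%. They weight the 3 fractions equally, since RPKM gives each library the same total. The median cluster window had 8.77% of its label in Early S, 24.3% in the middle fraction and 67.9% in Late S. The median window of 2L had 27.5%, 33.4% and 34.2%.

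**Figure D1:**
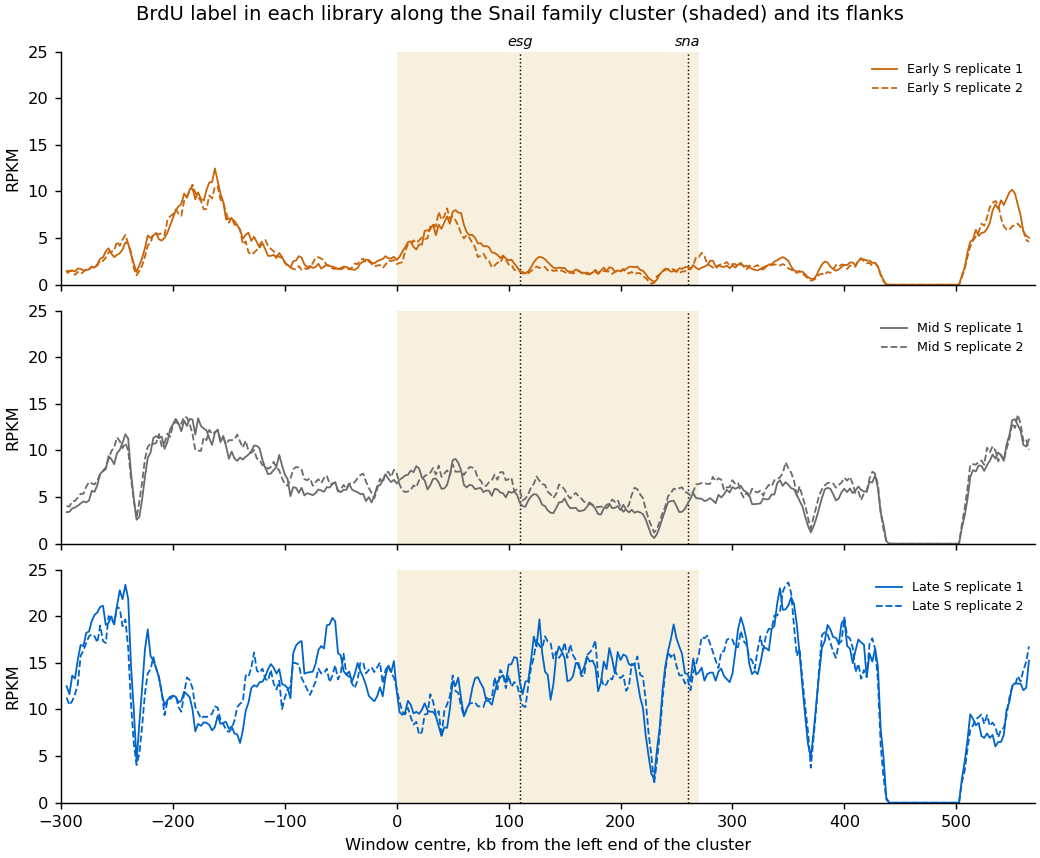
RPKM of each library (lines, solid for replicate 1 and dashed for replicate 2) against window centre in kb from the left end of the cluster, with the cluster shaded and the approximate positions of esg (110 kb) and sna (260 kb) dotted. Early S label forms a low hill in the left part of the cluster and runs between 0.242 and 3.07 RPKM (means of both libraries) over the rest; within the cluster, Late S medians are higher in the middle and right parts than in the left part, and a stretch of 72.5 kb in the right flank holds no reads.

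Each window was tested with limma on log2(RPKM + 0.0341), fitted to all 53434 windows with reads, and was called at a Benjamini-Hochberg adjusted p under 0.05. Of the 105 cluster windows, 101 (96.2%) were called higher in Late S than in Early S, where 44.2% of all windows were. No window was higher in Early S by that test, where 37.6% of all windows were. The median difference, Early S minus Late S, was -2.98 on the log2 scale and ranged from -3.87 to -0.14. Only 9.80% of the windows of 2L had a difference lower than that median. The 4 windows that were not called lay together between 15252501 and 15270000, at -0.35 to -0.14.

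The Mid S fraction stood between the others. Against Early S, 88 cluster windows (83.8%) were called higher in Mid S, with 43.5% of all windows, and none higher in Early S, with 20.5% of all windows. The median difference, Early S minus Mid S, was -1.32. This count depended on the scaling: with libraries centred on their medians 71.4% of cluster windows were called higher in Mid S (32.3% of all windows), and after quantile normalisation 13.3% were (24.4% of all windows). Against Late S, 96 cluster windows (91.4%) were called higher in Late S, with 26.9% of all windows, and none higher in Mid S, with 38.7% of all windows. The median difference, Mid S minus Late S, was -1.50. Late S had the highest mean in 105 of 105 cluster windows, and 96 of them were called above both other fractions. On 2L as a whole Late S had the highest mean in 45.1% of windows. It was called above both other fractions in 32.8% of the windows of 2L and 26.7% of all windows.

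**Figure D2:**
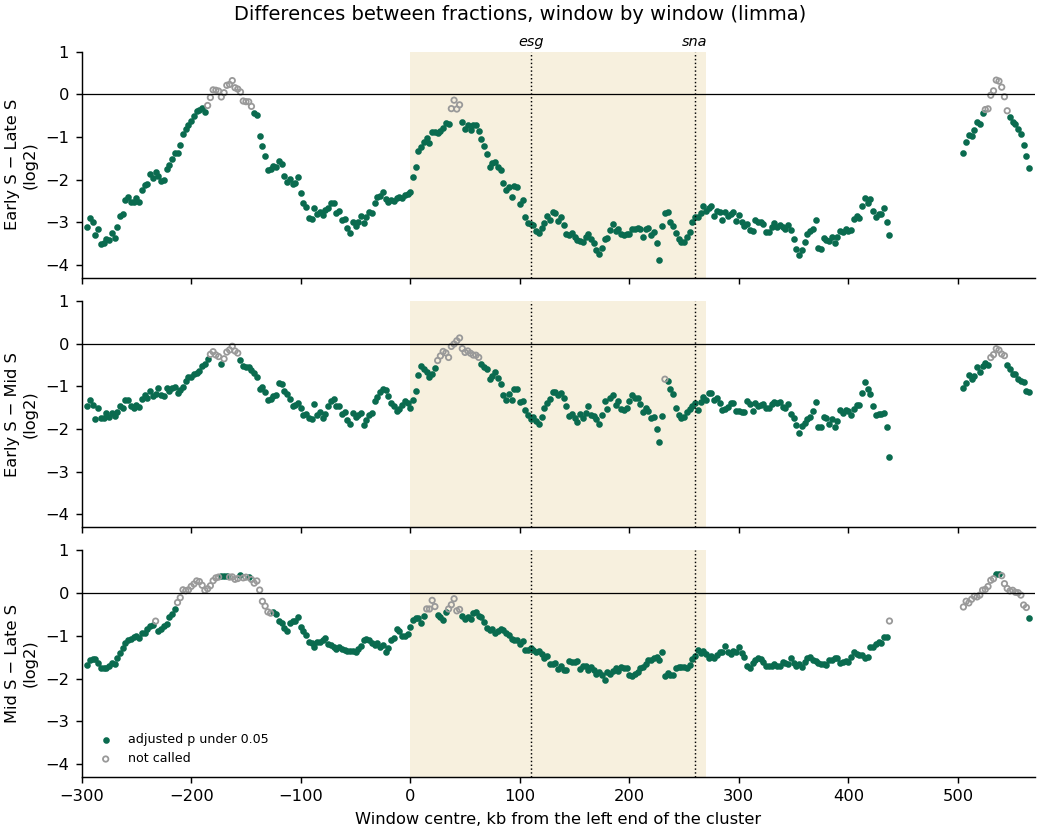
Log2 difference between fractions (limma; 3 panels, Early S minus Late S, Early S minus Mid S, Mid S minus Late S) for each window with reads against its centre in kb from the left end of the cluster; filled points have an adjusted p under 0.05 and open points do not. In the shaded cluster the Early S minus Late S difference approaches 0 only in the left part, at -0.14, and stays between -3.87 and -2.75 from esg to sna.

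The cluster was not even along its length. It was divided into 3 parts of 90 kb with 33 whole windows each. The left part, which ends at 15310000, carries neither the esg nor the sna position. There the median window had 5.31 and 4.97 RPKM in Early S, then 6.57 and 7.32 RPKM in the Mid S libraries, rising to 10.1 and 10.3 RPKM in Late S. The fractions kept the same order without overlap, but they lay closer together than in the rest of the cluster. The middle part, which holds esg, had 1.81 and 1.48 RPKM in Early S. Its Mid S values were 4.21 and 5.55 RPKM, and its Late S values 14.9 and 15.5 RPKM. The right part, from 15400001 and with sna near its end, had 1.60 and 1.43 RPKM in Early S. Its Mid S values were 3.64 and 4.69 RPKM, and its Late S values 14.7 and 13.4 RPKM. The middle and right parts overlapped in Early S and in Mid S but not in Late S, and the left part was above both in Early S and below both in Late S in every library.

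Early S minus Late S had a median of -0.89 in the left part, -3.13 in the middle part and -3.17 in the right part. Late S was called higher than Early S in 29, 33 and 33 of 33 windows of these parts, Mid S higher than Early S in 17, 33 and 32, and Late S higher than Mid S in 24, 33 and 33. Over all windows these shares were 44.2%, 43.5% and 26.9%, and the 17 windows of the left part (51.5%) were near the 49.7% of 2L. The share of label in Early S was 22.9% in the median window of the left part, 7.58% in the middle part and 7.63% in the right part. The right part differed from the left part by -2.21 ± 0.125 in Early S minus Late S (log2 of region medians per library; the error combines the SDs of both fractions, n = 2 each). With the 90 ways to divide 6 libraries into 3 pairs, an exact permutation test (two-sided) gave p = 0.0222, the smallest that this design allows, and 0.0593 after adjustment over the 8 region comparisons made. None of the 8 passed 0.05 after adjustment.

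The least late window of the cluster was 15255001 to 15265000, centred 40 kb from the left end. It had 5.99 and 6.97 RPKM in Early S. Its Mid S values were 5.89 and 7.17 RPKM, and its Late S values 7.16 and 7.08 RPKM. Mid S overlapped both other fractions there and Early S lay just under Late S, and the Early S minus Late S difference was -0.14 (limma, adjusted p = 0.482). Early S label was highest in the cluster at 15260001 to 15270000, with 7.32 and 8.19 RPKM, against 6.32 and 7.87 RPKM in Mid S and 8.02 and 10.5 RPKM in Late S. That window and the one before it, from 15257501, were the 2 of the cluster with a mean lower in Mid S than in Early S, and neither passed the test (limma, adjusted p = 0.540 and 0.756). To the right of the least late window the difference first reached -1 after 25 kb, -2 after 45 kb and -3 after 67.5 kb, at the window from 15322501 that covers part of the esg position. To the left it reached -1 after 22.5 kb, -2 after 40 kb, at the border of the cluster, and -3 after 82.5 kb, inside the left flank.

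The esg gene (escargot) was read in the window from 15325001 to 15335000, the one centred on its approximate position. Early S had 1.46 and 1.43 RPKM (43 and 27 reads). Mid S had 4.39 and 5.70 RPKM (123 and 113 reads). Late S had 12.9 and 11.4 RPKM (240 and 158 reads). The fractions did not overlap, and mean RPKM was 8.42-fold higher in Late S than in Early S. The log2 difference was -3.04 for Early S minus Late S (SE 0.222, limma adjusted p = 2.94e-08), -1.77 for Early S minus Mid S (adjusted p = 2.72e-05) and -1.27 for Mid S minus Late S (adjusted p = 0.000283). Of the windows of 2L, 8.81% had a lower Early S minus Late S difference.

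The sna gene (snail) was read in the window from 15475001 to 15485000. Early S had 1.91 and 1.74 RPKM (56 and 33 reads). Mid S had 4.28 and 5.45 RPKM (120 and 108 reads). Late S had 13.8 and 13.2 RPKM (256 and 183 reads). Again no fraction overlapped another, and mean RPKM was 7.40-fold higher in Late S than in Early S. The log2 difference was -2.87 for Early S minus Late S (SE 0.209, limma adjusted p = 2.93e-08), -1.39 for Early S minus Mid S (adjusted p = 7.81e-05) and -1.48 for Mid S minus Late S (adjusted p = 8.33e-05). After quantile normalisation the Early S minus Mid S difference of this window was -0.27 (limma, adjusted p = 0.297), and that of the esg window was -0.66 (adjusted p = 0.0300). On 2L, 11.6% of windows had a lower Early S minus Late S difference than the sna window.

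The esg and sna windows, 150 kb apart, were close to each other in every fraction. In Early S the sna window was higher in both libraries, but the 95% Poisson intervals of the libraries overlapped, at 1.06 to 1.97 RPKM for esg and 1.44 to 2.48 RPKM for sna in replicate 1. In Late S the corresponding intervals were 11.3 to 14.7 and 12.2 to 15.6 RPKM. These intervals cover counting error only. The difference between the genes was not tested.

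**Figure D3:**
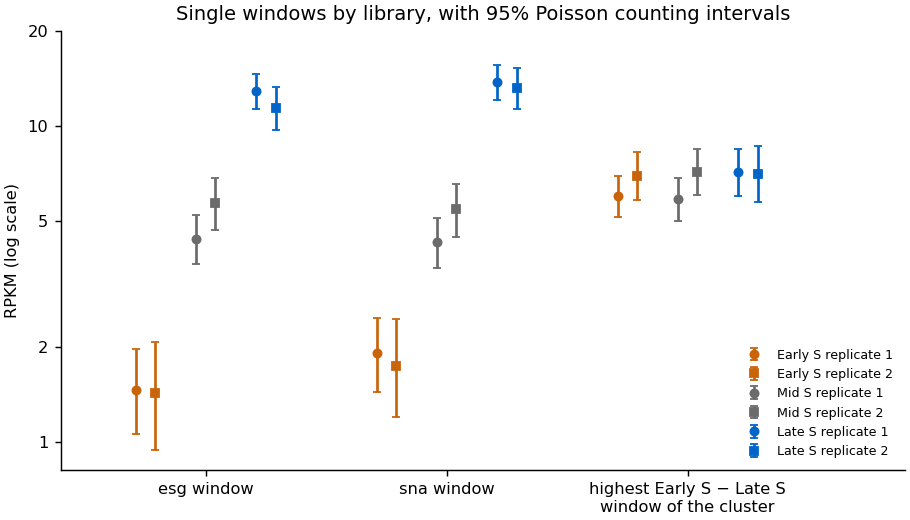
RPKM (log axis) of the esg window, the sna window and the least late window of the cluster, by library (circles for replicate 1, squares for replicate 2) with 95% Poisson counting intervals. Early S sits between 1.43 and 1.91 RPKM and Late S between 11.4 and 13.8 RPKM at esg and sna, while all 6 libraries lie between 5.89 and 7.17 RPKM in the third window.

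No position of wor (worniu) in these coordinates was used. In the Release 6 gene table wor lies between esg and sna, with 7 genes between esg and wor (2 protein-coding, CG15258 and CG44869, and 5 lncRNA genes) and 5 between wor and sna (1 protein-coding, CG4161, and 4 lncRNA genes). If that order holds in the files' release, wor lies among the windows centred between the esg and sna windows, of which there were 59. All 59 were called higher in Late S than in Early S (44.2% of all windows), with differences from -3.87 to -2.75 (limma adjusted p at most 2.79e-05). All 59 were also called higher in Late S than in Mid S (26.9% of all windows), and 58 were called higher in Mid S than in Early S (43.5%). The last count depends on the scaling: after quantile normalisation only 13.3% of all cluster windows were called higher in Mid S. The share of label in Late S ran from 66.2% to 75.0%, and that in Early S from 5.26% to 10.2%. The nearest protein-coding genes before esg in that table are ms(2)35Ci, CG15262 and nht, and those after sna are Tim17b2, lace and Skadu.

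Within that stretch the highest Late S value of the cluster, 19.7 and 16.8 RPKM, was at 15342501 to 15352500, where Early S had 3.00 and 1.80 RPKM and Mid S 4.85 and 6.76 RPKM. The lowest Early S minus Late S difference, -3.87 (SE 0.582, limma adjusted p = 2.53e-05), was at 15442501 to 15452500. Early S had 0.511 and 0.106 RPKM there, Mid S 0.928 and 1.92 RPKM, and Late S 3.12 and 5.13 RPKM. The Early S values rest on 15 and 2 reads, and the latter is under the 3 reads that a count of 0 allows. All fractions were low at this place: 5 windows from 15440001 to 15460000 had a summed signal of 3.45 to 10.9 RPKM, under 11.8 RPKM, which is 50% of the median of 2L. Of the windows of 2L, 5.09% were that low. The share of label in Late S was 66.7% to 71.4% in these 5 windows, beside 71.3% for the median window of the right part, and all 5 were called late. The cause of the low signal was not tested.

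**Figure D4:**
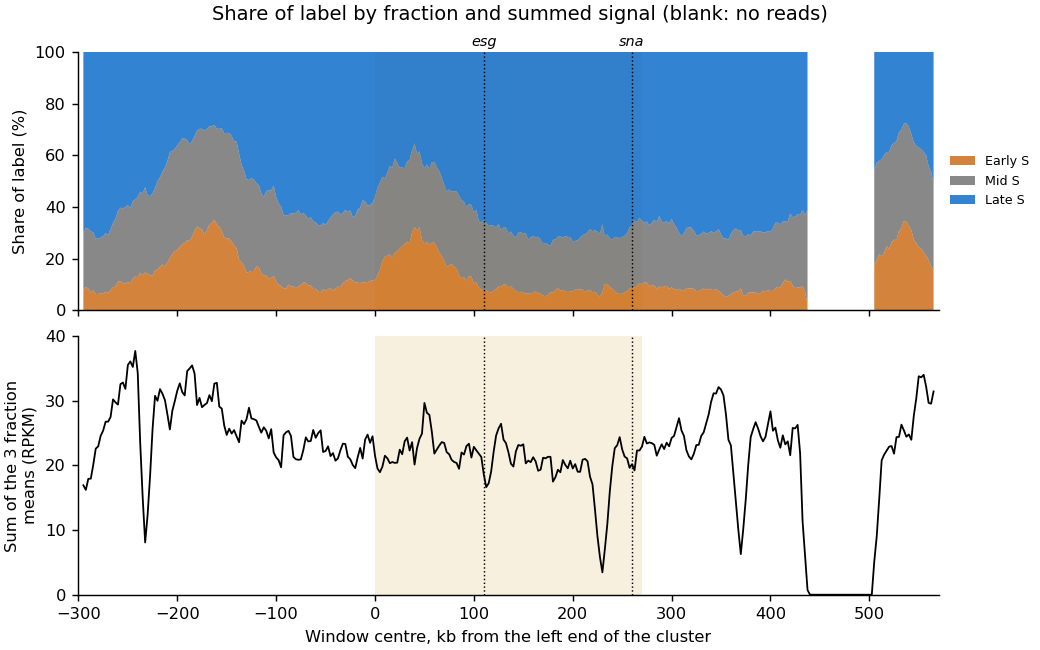
Top, share of the summed label (%) in Early S, Mid S and Late S for each window against its centre in kb from the left end of the cluster; bottom, the sum of the 3 fraction means in RPKM, with the cluster shaded. The Late S share is 35.4% at its lowest in the left part and 66.2% to 75.0% between esg and sna, where the sum dips to 3.45 RPKM without a break in the shares.

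The flanks were late too. The median window of the left flank had 3.01 ± 0.0757 RPKM in Early S, 7.78 ± 0.349 RPKM in the middle fraction and 13.4 ± 0.210 RPKM in Late S (SD, n = 2). That of the right flank had 2.12 ± 0.0845, 6.11 ± 0.565 and 14.8 ± 1.17 RPKM. Late S was called higher than Early S in 100 of 117 windows of the left flank and in 82 of the 91 windows with reads in the right flank. Over all windows that share was 44.2%. Early S minus Late S had a median of -2.28 and -2.93 in these flanks, next to -2.98 in the cluster. Late S had the highest mean in 88 windows of the left flank (75.2%) and 77 of the right (84.6%), against 43.2% of all windows. Mid S had it in the remaining 29 (24.8%) and 14 (15.4%), against 21.9% of all windows. The median summed signal was 21.1 RPKM in the cluster, 25.4 in the left flank, 24.3 in the right flank and 23.6 on 2L.

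Each flank held a place where Early S equalled or passed Late S on average, which the cluster did not. In the left flank it was centred on 15052501 to 15062500, with 12.5 and 10.5 RPKM in Early S against 8.13 and 10.3 in Late S (0.32, limma adjusted p = 0.0872). In the right flank it was centred on 15750001 to 15760000, with 8.62 and 8.98 RPKM in Early S against 6.03 and 8.09 in Late S (0.33, limma adjusted p = 0.0896). At each place both Early S libraries were above both Late S libraries, but neither difference passed the test. Early S was called above Late S in no window of either flank, where 37.6% of all windows were. Mid S was called above Late S in 5 windows of the left flank (4.27%) and 2 of the right (2.20%), against 38.7% of all windows. The hill of Early S label in the left part of the cluster is the one between these places, and it is lower, with 7.32 and 8.19 RPKM at its top.

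Set against both flanks together, the cluster differed by -0.37 ± 0.0533 in Early S minus Late S (exact permutation p = 0.0444, adjusted 0.0593). Against the left flank the difference was -0.71 ± 0.117 (exact permutation p = 0.0444, adjusted 0.0593). Both moved with the width of the flanks: with 150 kb on each side they were -0.10 and -0.36, and with 600 kb they were -0.22 and -0.18. Against the right flank it was -0.07 ± 0.168 (exact permutation p = 0.533), under its error, and its sign turned with the width of the flank (0.24 with 150 kb) and without Late S replicate 1 (0.03). By part, the left part was 1.50 ± 0.0417 above the flanks (exact permutation p = 0.0222, adjusted 0.0593), the middle part -0.71 ± 0.0986 (p = 0.0444, adjusted 0.0593) and the right part -0.71 ± 0.103 (p = 0.0667, adjusted 0.0762). With flanks of 150 kb the 3 parts were at 1.77, -0.44 and -0.43. The value for the whole cluster thus covers parts of opposite sign. Against all windows with reads the cluster differed by -2.70 ± 0.133 (exact permutation p = 0.0222, adjusted 0.0593).

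**Figure D5:**
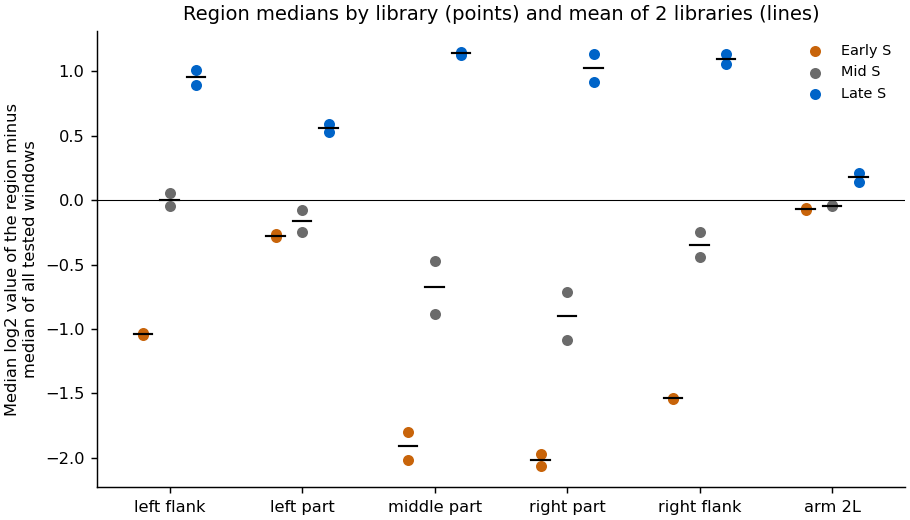
Median log2 value of each region minus the median of all tested windows, by library (points, 2 per fraction) with the mean of both (lines), for the flanks, the 3 parts of the cluster and arm 2L. Early S and Late S lie within 1 log2 unit of each other in the left part and about 3 units apart in the middle and right parts, where Early S is lowest.

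Joined windows give the cluster's place in a longer pattern. Windows with a call and a log2 difference of at least 1 were joined across gaps of at most 2 windows. The left border of the cluster lies inside a late block from 15080001 to 15242500 (162.5 kb, mean Early S minus Late S -2.32), which ends in the left part. After the least late stretch a second late block ran from 15280001 to 15662500. It was 382.5 kb long with 150 called windows, took in both gene positions and extended past the cluster into the right flank. Its mean levels, from Early S to Late S, were 1.88 ± 0.177, 5.07 ± 0.715 and 14.5 ± 0.0356 RPKM, and its mean difference was -2.99. Among 57 late blocks of at least 5 windows on 2L, with a median length of 115 kb, it ranked 7 by length and 2 by mean difference. With a minimum of 2 in place of 1 it ran from 15300001 to 15662500. Longer late blocks reached into each flank from outside. They ran from 14535001 to 15015000 (480 kb, mean difference -2.61) and from 15775001 to 16230000 (455 kb, mean difference -2.56). No block higher in Early S was found in the cluster or its flanks.

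The right end of that block is set by missing data. From 15655001 to 15727500 all 26 windows were at 0 in all 6 libraries, while the median window of the right flank held 39 to 259 reads per library. Why they hold no reads was not tested, and these windows are in no test, call or median above. Beyond it a short late block of 12.5 kb reached 15732500.

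Stretches elsewhere were ranked by the likeness of their medians to those of the cluster. The search covered 354 stretches of 270 kb on X, 2L, 3L and 3R with reads in at least 80% of windows. In each library the log2 median of a stretch was taken relative to the median of that library. Likeness was the root mean square, over the 6 libraries, of the difference between stretch and cluster. The nearest were 3L from 17010001 to 17280000 (0.0944), 2L from 11340001 to 11610000 (0.106) and 3L from 4860001 to 5130000 (0.146). The first had medians of 1.81, 5.10 and 13.2 RPKM, from Early S to Late S. The search ranked stretches on their medians, so near values follow from the choice, and the profile along a stretch was not compared. Of the 354 stretches, 10 had a lower median Early S minus Late S difference than the cluster.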

How the data were processed

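The authors deposited 1 file per library with 1 RPKM value per 10 kb window every 2.5 kb, per the file headers. For the aligner, the build, filters and any input correction, nothing is given in the sources used here, and Release 5 was taken from the names and coordinates of the sequences. Values were whole multiples of 1 read within 0.02 reads, which gave the read numbers. The fraction of Mid S replicate 1 was taken from its title. The 2466 windows without reads in any library were not tested. limma 3.58.1 in R 4.3.3 fitted fraction means to log2(RPKM + 0.0341), the pseudocount being the lowest value above 0, and p-values were adjusted (Benjamini-Hochberg) over 53434 windows. The pseudocount pulls the log2 differences of low windows toward 0. Region medians per library were compared by exact two-sided permutation, adjusted over 8 comparisons. Named windows were those centred on the gene positions and the extremes of each region. The cluster, its parts and these rules were chosen with earlier results of these data known. Scripts were tested on simulated data. Gene order came from a Release 6 table, whose coordinates were not used. Same-numbered replicates were not treated as pairs: deviations from the fraction means correlated at -0.03, 0.02 and 0.21.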

Additional observations from a re-analysis of the deposited data

How the results depend on the processing

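The share of cluster windows called higher in Late S than in Early S was 96.0% to 96.3% under every alternative run. Over all windows that share ran from 37.9% (quantile normalisation) to 44.5% (replicate block). The esg window kept its 3 calls under each alternative that was run on it (all but non-overlapping windows). Early S against Mid S was the exception: 13.3% of windows were called higher in Mid S after quantile normalisation (24.4% of all windows). With median centring, 0.952% were higher in Early S (31.2% of all windows). Leaving out 1 library gave Early S minus Mid S differences of -1.955 to -1.58 at the esg window and -1.562 to -1.217 at the sna window. Mid S minus Late S ran from -1.461 to -1.086 at esg and from -1.649 to -1.303 at sna. In both comparisons the share of cluster windows called was no higher than in the main fit. These fits leave 1 fraction with 1 library, and their shares over all windows were below those of the main fit. With a replicate block, 93.3% of windows were called higher in Late S than in Mid S (27.7% of all windows). The shares for the other comparisons stayed at 96.2% and 83.8% (44.5% and 44.2% of all windows), with every esg and sna call kept. The replicate numbers are not known to pair the libraries. With means in place of medians, 5 region comparisons passed 0.05 after adjustment (adjusted exact p = 0.0356): the cluster against all windows (-2.15), the left part (1.10), middle part (-0.97) and right part (-1.06) against both flanks, and the right minus the left part (-2.16). The cluster against the right flank turned to 0.015 with non-overlapping windows and 0.24 with flanks of 150 kb, and ran from -0.17 to 0.029 with 1 library left out. The Late S median was 13.4 RPKM in the combined file against 12.9 RPKM. The causes were not tested. Leaving out windows of little signal, chosen after seeing the data, changed no direction or call. Count models on recovered reads were not run, since the values are RPKM. Depth limits single Early S windows, which held as few as 2 reads in the cluster and 0 in the right flank.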
